A study of Homo sapiens with 4 samples.

Results

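The nuclear genes of respiratory complexes II to V were followed in RNA-seq of human lung adenocarcinoma cells after silencing circZFR, a circular RNA of the *ZFR* gene. Members were the protein-coding genes named *SDHA* to *SDHD* or *CYC1*, or with a symbol starting with UQCR, with ATP5, or with COX, a digit from 4 to 8 and a further letter. This rule uses names alone and found 50 of the 40205 genes listed (19784 of them protein-coding), 4 for complex II, 10 for complex III, 17 for complex IV and 19 for complex V. The tables carry older symbols, and 19 of the 50 are named differently in the current annotation (*ATP5I*, for example, is now *ATP5ME*). Names beginning with ATP5 also brought in *ATP5S* (now *DMAC2L*) and *ATP5SL* (now *DMAC2*), which are not structural subunits of ATP synthase, and the readthrough gene *ATP5J2-PTCD1*.

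Complex II (succinate dehydrogenase) oxidizes succinate in the tricarboxylic acid cycle and hands the electrons to ubiquinone, and all of its subunits are encoded in the nucleus. Complex III passes electrons from ubiquinol to cytochrome c and complex IV from cytochrome c to oxygen, both adding to a proton gradient that complex V (ATP synthase) uses to make ATP. In complexes III to V a few subunits come from mitochondrial DNA, including the core of complex IV and part of the proton channel of complex V, and the nuclear genes supply the others.

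The cells were transfected for 24 h with a negative control siRNA (libraries NC 1 and NC 2) or with siRNA against circZFR (libraries si-circZFR 1 and 2), and total RNA was sequenced on the Ion Proton. The deposited values are RPKM (read numbers corrected for gene length and library size), and the read numbers behind them could be recovered (11040050 to 12816868 per library). Nothing in the sources says that the 2 libraries of a group came from separate cultures, so the p-values measure the spread between these libraries, which may be technical. The sample labels name H1299 cells, whereas the study design names A549 cells. Of the markers of A549 given here, *AKR1B10*, *AKR1C2* and *ALDH1A1* had at least 729.8 scaled RPKM in every library, whereas *FGB* (0.775 to 2.60) and *FGG* (2.21 to 6.00) were low and higher in both si-circZFR libraries than in NC. *CDKN2A*, deleted in A549, had 0 reads in all 4 libraries. *ZFR* itself had 26.0 and 31.9 scaled RPKM in NC and 5.26 and 4.63 in si-circZFR (log2 fold change -2.33, SE 0.17, limma FDR 0.0388). A value per gene does not separate the circle from the linear *ZFR* mRNA. The reads of *ZFR*, 1437 and 1740 in NC and 284 and 267 in si-circZFR, belonged to a gene length of 4715 bases. By RT-PCR the paper found no detectable effect of its siRNA on *ZFR* expression. Whether the linear mRNA also fell in these libraries was not tested. The part of the circle alone in the differences below was not tested either.

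Promoters of respiratory genes are known for elements bound by NRF1, by ETS factors such as GABP, and by YY1. RefSeq (GRCh38.p14) gave a promoter, from 250 bases before to 50 bases after the start, for 36 of the 50 members, 32 of them tested for expression. Letters of these elements were searched on both strands. TGCGCA, letters found in some forms of the NRF1 element, stood in 9 of the 32 promoters (28.1%), against 8.42% of the 27303 genes with a promoter in the table. The whole NRF1 element was not searched, and a promoter without TGCGCA may still hold another form of it. CCGGAAG, an ETS element, stood in 15 of 32 (46.9%, against 10.7% of all). AAGATGG, a YY1 element, stood in 9 of 32 (28.1%, against 6.06% of all). The 27303 genes were not limited to those tested for expression, unlike the 32 members. For these genes the first listed promoter was used, and for members the one nearest the annotated start. Among the 4 untested members with a promoter, TGCGCA stood in 1, and CCGGAAG and AAGATGG in 0. Matches are descriptions of letters, not sites of binding. TGCGCA stood in 3 of the 3 promoters of complex II, 2 of 7 of complex III, 3 of 10 of complex IV and 1 of 12 of complex V. CCGGAAG stood in 2, 3, 5 and 5 of these promoters, and AAGATGG in 1, 2, 1 and 5.

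Windows from 100 bases before to 20 bases after the start are shown for 5 members with matches and for *ATP5E*, which had none in the whole promoter and was among the members with the lowest p. Capitals mark the 3 motifs on either strand. The windows are *SDHA*, the flavoprotein of complex II, at chr5:218220-218339 on the plus strand; *UQCR11* of complex III at chr19:1605443-1605562 on the minus strand; *COX5B* and *COX7C* of complex IV at chr2:97645962-97646081 and chr5:86617841-86617960 on the plus strand; and *ATP5I* and *ATP5E* of complex V at chr4:674257-674376 and chr20:59032316-59032435 on the minus strand.
SDHA: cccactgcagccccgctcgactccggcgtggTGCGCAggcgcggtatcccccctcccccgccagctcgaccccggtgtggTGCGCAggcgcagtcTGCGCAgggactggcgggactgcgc
UQCR11: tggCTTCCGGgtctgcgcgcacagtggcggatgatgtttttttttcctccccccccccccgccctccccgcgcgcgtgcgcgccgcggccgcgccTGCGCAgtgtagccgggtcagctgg
COX5B: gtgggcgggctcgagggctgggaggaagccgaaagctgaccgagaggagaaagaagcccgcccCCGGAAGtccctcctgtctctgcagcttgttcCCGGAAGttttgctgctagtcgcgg
COX7C: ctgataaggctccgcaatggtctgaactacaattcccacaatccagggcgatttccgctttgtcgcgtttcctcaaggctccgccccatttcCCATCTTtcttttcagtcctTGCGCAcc
ATP5I: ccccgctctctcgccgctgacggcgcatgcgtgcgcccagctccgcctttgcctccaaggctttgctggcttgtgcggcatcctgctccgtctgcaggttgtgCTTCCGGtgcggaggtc
ATP5E: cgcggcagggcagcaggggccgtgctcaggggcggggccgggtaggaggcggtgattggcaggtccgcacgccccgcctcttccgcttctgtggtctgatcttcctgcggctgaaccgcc
The *SDHA* promoter held 5 matches of TGCGCA, more than that of any other member in the table, and the *COX5B* window held CCGGAAG at 2 positions close to the start. The *ATP5I* promoter held each of the 3 motifs once, of which CCGGAAG lay in the window shown. Members with and without a motif covered much the same range of fold changes after silencing circZFR. The median log2 fold change was -0.62 for the 15 members with CCGGAAG and -0.53 for the 17 without it, -0.48 for the 9 members with TGCGCA and -0.62 for the 23 without it, and -0.49 for the 9 with AAGATGG and -0.62 for the 23 without it.

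Of the 50 members, 43 reached an RPKM of 1 in 2 or more libraries and were tested. The other 7 were *COX4I2*, *COX6A2*, *COX6B2*, *COX7A1*, *COX7B2*, *COX8C* and *ATP5L2*. Apart from *ATP5L2*, a copy of the subunit g gene, these are isoforms of complex IV subunits known from particular tissues such as muscle, lung or testis. *COX4I2*, *COX6A2*, *COX7A1* and *COX7B2* had 0 reads in every library, and the others had at most 11. Per length, the ubiquitous partners of these isoforms had mean scaled RPKM in NC of 334 for *COX4I1*, 349.5 for *COX6A1*, 529 for *COX6B1*, 124 for *COX7A2*, 159 for *COX7B* and 305 for *COX8A*. Levels of tested members spanned 14.9 to 62.6 scaled RPKM in complex II, 11.8 to 317 in complex III, 18.4 to 529 in complex IV and 2.42 to 602 in complex V, highest for *ATP5B*. Reads per tested member and library ranged from 58 to 14391.

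NC 2 stood apart from NC 1 in these genes. All 43 tested members were higher in NC 2 than in NC 1, by a median of 0.49 on the log2 scale, whereas the median over all genes tested was 0.01. NC 2 was the highest of the 4 libraries for 39 of the 43 members, and NC 1 for none. The median difference of NC 2 from NC 1 was 0.31 in complex II, 0.59 in complex III, 0.76 in complex IV and 0.42 in complex V. The si-circZFR libraries lay closer to each other, with a median difference of 0.04 over the 43 members. The part of this difference between the control libraries in the results was not tested, and medians are therefore given with and without NC 2.

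**Figure D1:**
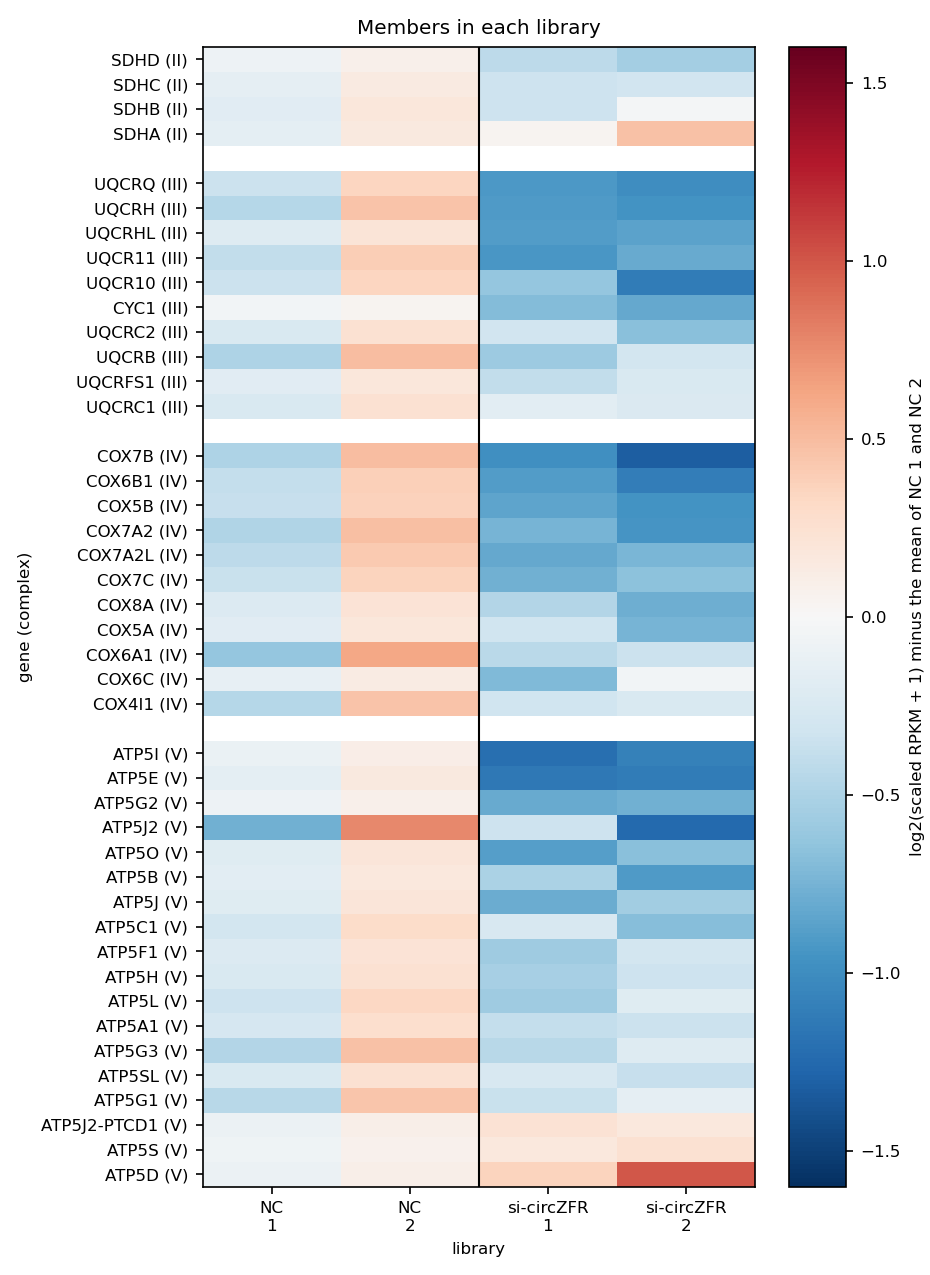
Each row is a tested member with its complex and each column a library; colour gives log2(scaled RPKM + 1) minus the mean of both NC libraries. NC 2 was above NC 1 in all 43 rows, and most members were lower in both si-circZFR libraries.

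After silencing circZFR, 39 of the 43 members tested had a negative log2 fold change (49.3% of all 13885 genes tested did), with a median of -0.49 against 0.01 over all genes. In bulk RNA, fewer cells of a kind and less RNA per cell cannot be told apart. Both si-circZFR libraries lay below both NC libraries for 28 members (28.1% of all genes) and above both for 3 (28.1% of all genes). No member passed FDR < 0.05 in limma (0.0576% of all genes, 8, passed). The smallest FDR was 0.0759 for *ATP5I*. Without adjustment, 19 members were lower (11.5% of all genes) and 1 was higher (10.1% of all genes) at p under 0.05, and limma-voom on the recovered reads passed 1 member, *ATP5E*. The members' median changed when a library was left out. Such a fit leaves 1 library in a group, so only effect sizes are given. Without NC 1 the median was -0.79 (0.002 over all genes). Without NC 2 it was -0.24 (-0.007 over all genes), and 33 members, in place of 39, had a negative difference. It was -0.66 without si-circZFR 1 (0.014 over all genes) and -0.53 without si-circZFR 2 (0.006 over all genes).

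**Figure D2:**
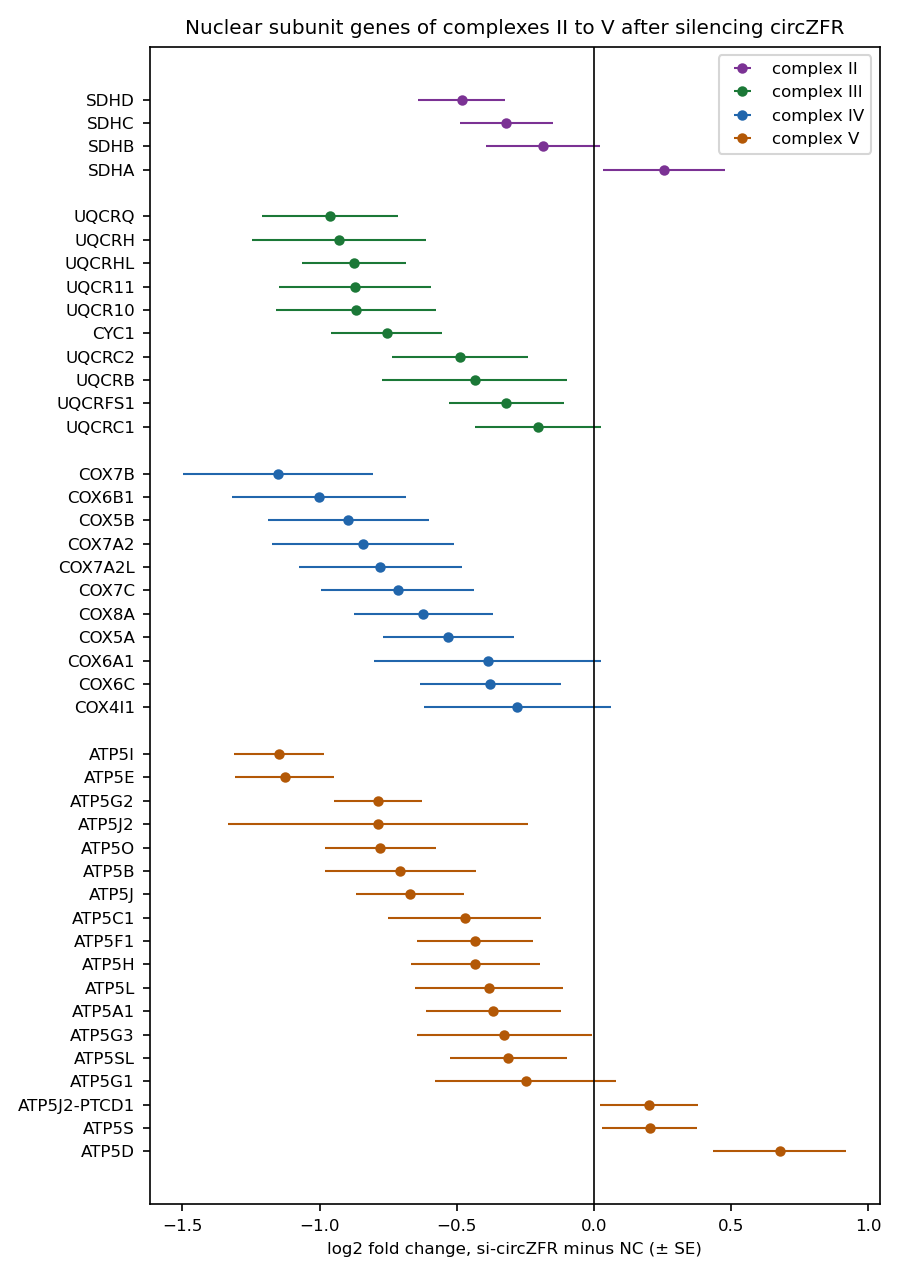
Log2 fold change, si-circZFR minus NC, for each of the 43 tested members with its standard error from limma, by complex. All 10 members of complex III and all 11 of complex IV lay below 0, and *SDHA*, *ATP5D*, *ATP5S* and *ATP5J2-PTCD1* lay above it.

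Complex II had the smallest median difference, -0.25 over its 4 genes and -0.09 without NC 2. *SDHA*, the subunit that binds FAD and oxidizes succinate, had 55.6 and 69.7 scaled RPKM in NC and 64.3 and 86.4 in si-circZFR (log2 fold change 0.26, SE 0.22, limma FDR 0.531). Its si-circZFR 2 value was the highest of the 4, but si-circZFR 1 lay between the NC libraries. *SDHB*, the iron-sulfur subunit, had 51.5 and 66.6 in NC and 46.2 and 57 in si-circZFR (-0.19, SE 0.21, limma FDR 0.628), so the groups overlapped. For the membrane anchors, *SDHC* had 13.2 and 16.5 in NC and 11.5 and 11.8 in si-circZFR (-0.32, SE 0.17, limma FDR 0.328). *SDHD* had 18.4 and 20.8 in NC and 14.4 and 13.1 in si-circZFR (-0.48, SE 0.16, limma FDR 0.172). For both anchors si-circZFR lay below NC without overlap (28.1% of all genes). *SDHD* was the only gene of complex II with an unadjusted p under 0.05 (11.5% of all genes were lower at that p). The part of the enzyme that oxidizes succinate and its anchors were not tested against each other.

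Complex III was lower after silencing in all 10 of its genes, with a median of -0.81, and of -0.48 without NC 2. In 8 of the 10 both si-circZFR libraries lay below both NC libraries (28.1% of all genes). At an unadjusted p under 0.05, 6 were lower (11.5% of all genes). Among the redox subunits, *CYC1* (cytochrome c1) had 309 and 326 scaled RPKM in NC and 196 and 179.8 in si-circZFR (317 ± 12.3 against 188 ± 11.4, SD, n = 2 libraries each). Its log2 fold change was -0.75 (SE 0.20, limma FDR 0.131), and with NC 1 and NC 2 close to each other it was -0.72 without NC 2. *UQCRFS1*, the Rieske iron-sulfur protein, had 126 and 162 in NC and 108 and 120.5 in si-circZFR, a smaller difference without overlap (-0.32, SE 0.21, limma FDR 0.414).

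Of the core proteins of complex III, *UQCRC1* overlapped between the groups and *UQCRC2* did not. *UQCRC1* had 117 and 165 in NC and 123 and 118 in si-circZFR, with both si-circZFR values inside the range of NC (-0.20, SE 0.23, limma FDR 0.629), and the sign turned without NC 2 (0.046). *UQCRC2* had 103 and 146 in NC and 99.3 and 76.5 in si-circZFR (-0.49, SE 0.25, limma FDR 0.308). The small supernumerary subunits had larger differences, from -0.87 to -0.96 for *UQCR10*, *UQCR11*, *UQCRH*, *UQCRHL* and *UQCRQ*, with *UQCRB* at -0.43 as the exception.

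*UQCRQ* had 27.1 and 43.9 scaled RPKM in NC and 17.7 and 16.8 in si-circZFR (-0.96, SE 0.25, limma FDR 0.125), and its si-circZFR values were close to each other and well below NC 1. *UQCR11* had 8.43 and 15.3 in NC and 5.49 and 6.06 in si-circZFR (-0.87, SE 0.28, limma FDR 0.166). *UQCRB*, which helps to bind ubiquinone, had 12.4 and 25.7 in NC and 11.7 and 14.5 in si-circZFR, so that NC 1 lay between the si-circZFR libraries (-0.43, SE 0.34, limma FDR 0.484) and the sign turned without NC 2 (0.06). *UQCRHL*, a single-exon copy of the hinge protein gene *UQCRH*, had 32.8 and 43.8 in NC and 19.9 and 20.5 in si-circZFR (-0.88, SE 0.19, limma FDR 0.09997). It carried 16.2% to 21.4% of the summed level of both hinge genes in the 4 libraries. How reads that fit both copies were assigned is not given in the sources used here, so the split between them is uncertain.

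Complex IV was lower after silencing in all 11 genes tested, with a median of -0.71, and of -0.36 without NC 2. The NC libraries differed by the largest median of the 4 complexes here. In 8 genes both si-circZFR libraries lay below both NC libraries (28.1% of all genes). At an unadjusted p under 0.05, 6 were lower (*COX7B*, *COX6B1*, *COX5B*, *COX7A2L*, *COX7C* and *COX7A2*), against 11.5% of all genes. These nuclear subunits surround the catalytic core, which mitochondrial DNA encodes.

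*COX7B* had 106 and 211 scaled RPKM in NC and 75.2 and 59.5 in si-circZFR, the lowest log2 fold change of all members (-1.15, SE 0.35, limma FDR 0.155). *COX6B1*, the subunit on the side of cytochrome c and the highest of complex IV, had 392 and 666 in NC and 274 and 236 in si-circZFR (-1.003, SE 0.32, limma FDR 0.165). In both genes NC 2 was far above the other libraries, yet NC 1 was also above both si-circZFR libraries. *COX5B*, which binds zinc, had 237 and 398 in NC and 171 and 158 in si-circZFR (-0.90, SE 0.29, limma FDR 0.172). *COX7A2L*, known for joining complexes III and IV in supercomplexes, had 67.1 and 122 in NC and 50.6 and 53.9 in si-circZFR (-0.78, SE 0.30, limma FDR 0.213). Without NC 2 the differences were -0.66 for *COX7B*, -0.62 for *COX6B1*, -0.52 for *COX5B* and -0.36 for *COX7A2L*.

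The 3 members of complex IV nearest to 0 were those whose groups overlapped. *COX4I1*, the largest nuclear subunit, had 230.3 and 438 in NC and 255 and 269 in si-circZFR (-0.28, SE 0.34, limma FDR 0.658). *COX6A1* had 209 and 490.1 in NC and 238 and 251 in si-circZFR (-0.39, SE 0.41, limma FDR 0.61). In both, NC 1 was the lowest library and NC 2 the highest, and the sign turned without NC 2 (0.18 and 0.23). *COX6C* had 16.6 and 20.2 in NC and 10.8 and 17.7 in si-circZFR (-0.38, SE 0.26, limma FDR 0.428), so that the si-circZFR libraries differed from each other. Between these and the lowest members stood *COX7A2* (-0.84), *COX7C* (-0.71), *COX8A* (-0.62) and *COX5A* (-0.53), all without overlap.

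Complex V was lower in 15 of its 18 tested genes, with a median of -0.43, and of -0.14 without NC 2. These counts and medians include *ATP5S*, *ATP5SL* and *ATP5J2-PTCD1*, which are not subunits by role. Both si-circZFR libraries lay below both NC libraries in 10 genes (28.1% of all genes). They lay above both in 3, *ATP5D*, *ATP5S* and *ATP5J2-PTCD1* (28.1% of all genes). At an unadjusted p under 0.05, 6 were lower (11.5% of all genes) and 1 was higher (10.1% of all genes). In the catalytic head, *ATP5B* (subunit beta, which carries the catalytic sites) had 530.0 and 674 scaled RPKM in NC and 419.5 and 319.5 in si-circZFR (-0.71, SE 0.28, limma FDR 0.219). *ATP5A1* (subunit alpha) had 174 and 253 in NC and 160.4 and 165 in si-circZFR (-0.37, SE 0.25, limma FDR 0.422). Neither subunit's groups overlapped, but the *ATP5A1* value of NC 1 was close to those of si-circZFR.

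Genes of the central stalk, which turns inside the head, lay far apart from each other. *ATP5E* (subunit epsilon) had 66.0 and 82.0 scaled RPKM in NC and 32.8 and 33.5 in si-circZFR (74.0 ± 11.3 against 33.1 ± 0.495, SD, n = 2 libraries each). Its log2 fold change was -1.13 (SE 0.18, limma FDR 0.0782), and -0.97 without NC 2. *ATP5D* (subunit delta) had 20.4 and 23.3 in NC and 28.3 and 44.4 in si-circZFR, the highest log2 fold change of all members (0.68, SE 0.24, limma FDR 0.194). Its si-circZFR libraries were both above NC, and si-circZFR 2 was far above si-circZFR 1. *ATP5C1* (subunit gamma), the third gene of the stalk, had 147 and 222 in NC and 151 and 112 in si-circZFR, with overlap (-0.47, SE 0.28, limma FDR 0.369).

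All 4 genes of the peripheral stalk, which holds the head in place, were lower in both si-circZFR libraries than in both NC libraries (28.1% of all genes). *ATP5O* (OSCP) had 61.5 and 81.0 scaled RPKM in NC and 37.8 and 43.9 in si-circZFR (-0.78, SE 0.20, limma FDR 0.127). *ATP5J*, *ATP5F1* and *ATP5H* had log2 fold changes of -0.67, -0.43 and -0.43, and only *ATP5O* and *ATP5J* had an unadjusted p under 0.05. In the membrane part, *ATP5I* (subunit e, chromosome 4 from 672436 to 674276, 4 exons, a gene length of 365 bases recovered from the RPKM values) had 30.8 and 36.2 in NC and 13.9 and 15.2 in si-circZFR (33.5 ± 3.79 against 14.5 ± 0.957, SD, n = 2 libraries each). Its log2 fold change was -1.15 (SE 0.17, limma FDR 0.0759), and -1.04 without NC 2. These levels rest on 132 and 153 reads in NC and 58 and 68 in si-circZFR. *ATP5J2* (subunit f) varied most between the libraries, with 72.7 and 211 in NC and 98.3 and 51.9 in si-circZFR (-0.79, SE 0.55, limma FDR 0.436), and *ATP5L* (subunit g) was at -0.38 with overlap.

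The 3 genes *ATP5G1*, *ATP5G2* and *ATP5G3* encode the same mature subunit c, which forms the rotating ring, with different import sequences. *ATP5G2* had 61.3 and 68.5 scaled RPKM in NC and 36.5 and 37.8 in si-circZFR, without overlap (-0.79, SE 0.16, limma FDR 0.0936), and -0.71 without NC 2. *ATP5G1* had 183 and 337 in NC and 193 and 225 in si-circZFR (-0.25, SE 0.33, limma FDR 0.685). *ATP5G3* had 34.4 and 66.3 in NC and 34.8 and 41.3 in si-circZFR (-0.33, SE 0.32, limma FDR 0.578). In *ATP5G1* and *ATP5G3* NC 1 was the lowest library, and their signs turned without NC 2 (0.19 and 0.14). *ATP5G1* gave most of the summed level of the 3 genes, from 65.6% in NC 1 to 74.0% in si-circZFR 2. *ATP5G2* gave 22% in NC 1 but 14.5% in NC 2, 13.8% in si-circZFR 1 and 12.4% in si-circZFR 2, so its share also differed between the control libraries.

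The members that are not subunits by role had small differences. *ATP5S* had 2.31 and 2.67 scaled RPKM in NC and 2.92 and 3.11 in si-circZFR (0.20, SE 0.17, limma FDR 0.522). *ATP5J2-PTCD1* had 2.19 and 2.65 in NC and 2.99 and 2.85 in si-circZFR (0.20, SE 0.18, limma FDR 0.539). In both, si-circZFR lay above NC without overlap, at low levels, and the exons of the readthrough gene overlap those of *ATP5J2*. *ATP5SL*, an assembly factor of complex I, had a log2 fold change of -0.31 (limma FDR 0.429).

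**Figure D3:**
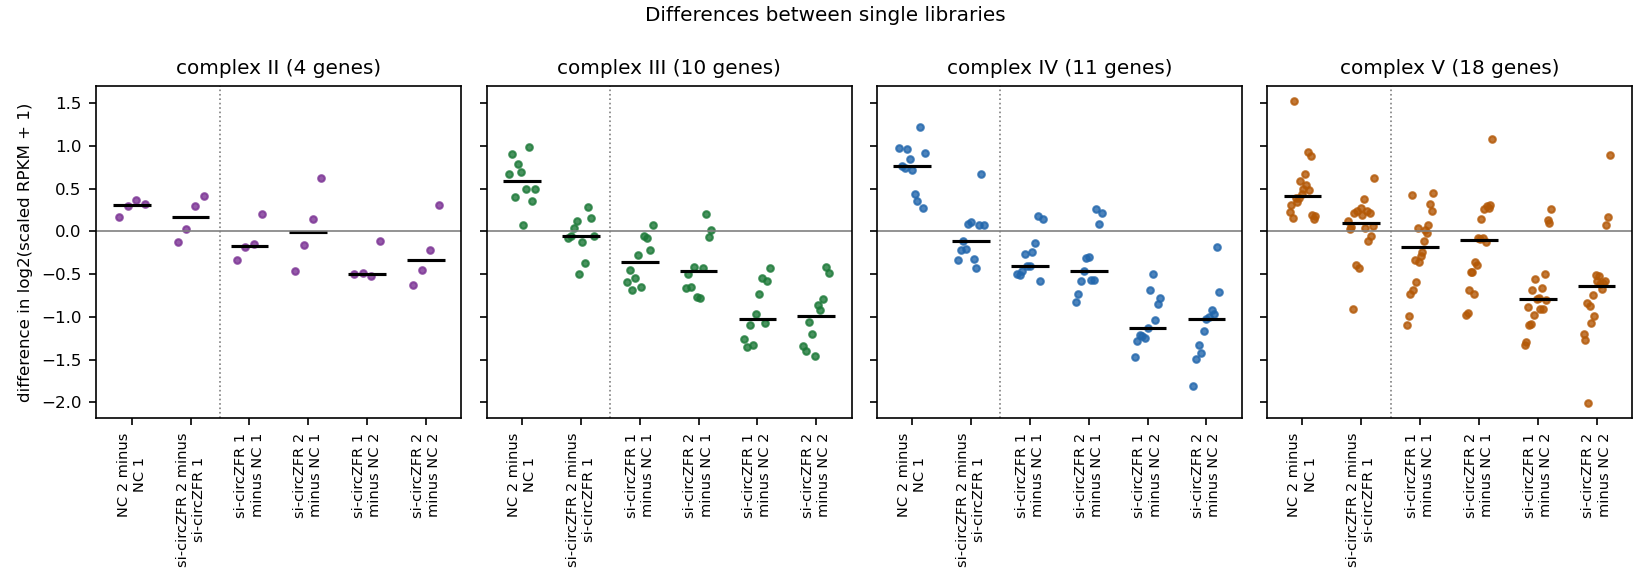
Differences in log2(scaled RPKM + 1) between single libraries, with a point for each tested member and a bar for the median of its complex; the left part of each panel compares libraries of the same group and the right part si-circZFR with NC. Against NC 1 the medians lie between -0.47 and -0.004, and against NC 2 between -1.13 and -0.34.

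Against NC 1 alone, 28 of the 43 members were lower in both si-circZFR libraries. They are the same 28 that lay below both NC libraries, because NC 2 was above NC 1 in all 43. Taken singly, 32 members were lower than NC 1 in si-circZFR 1 and 30 in si-circZFR 2. Over all 13885 genes tested these numbers were 6923 and 6961. The median difference of si-circZFR 1 and si-circZFR 2 from NC 1 was -0.36 and -0.46 in complex III, -0.40 and -0.47 in complex IV, -0.18 and -0.10 in complex V, and -0.17 and -0.004 in complex II. Against NC 2 the medians were -1.02 and -0.99 in complex III, -1.13 and -1.02 in complex IV, -0.80 and -0.64 in complex V, and -0.49 and -0.34 in complex II. The order of complexes III and IV above V and II in size was thus seen against either control library, and the sizes were larger against NC 2.

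Gene length moved with the differences. Short genes had lower fold changes over the whole table, with a median of -0.28 for genes of up to 600 bases, -0.32 from 600 to 1000, -0.18 from 1000 to 1500 and 0.06 above 1500. Members were short, 20 of the 43 at most 1000 bases, and had medians of -0.89, -0.48, -0.57 and -0.37 in these bins (10, 10, 8 and 15 members). The members' medians were below those of all genes in each bin. Pearson's r of log2 fold change with log2 length was 0.53 over the 43 members (Spearman's rho 0.56) and 0.21 over all 13885 genes (rho 0.29). The difference of NC 2 from NC 1 also went with log2 length. There r was -0.23 over the 43 members (rho -0.22) and -0.14 over all 13885 genes (rho -0.34). These are descriptions across genes measured in the same 4 libraries, and genes are not independent replicates. After a smooth correction of each library for length and GC content the median was -0.54 in complex III, -0.32 in complex IV, -0.34 in complex V and -0.12 in complex II, and 37 of 43 members had a negative difference. The part of length in the members' differences was not tested beyond this correction.

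**Figure D4:**
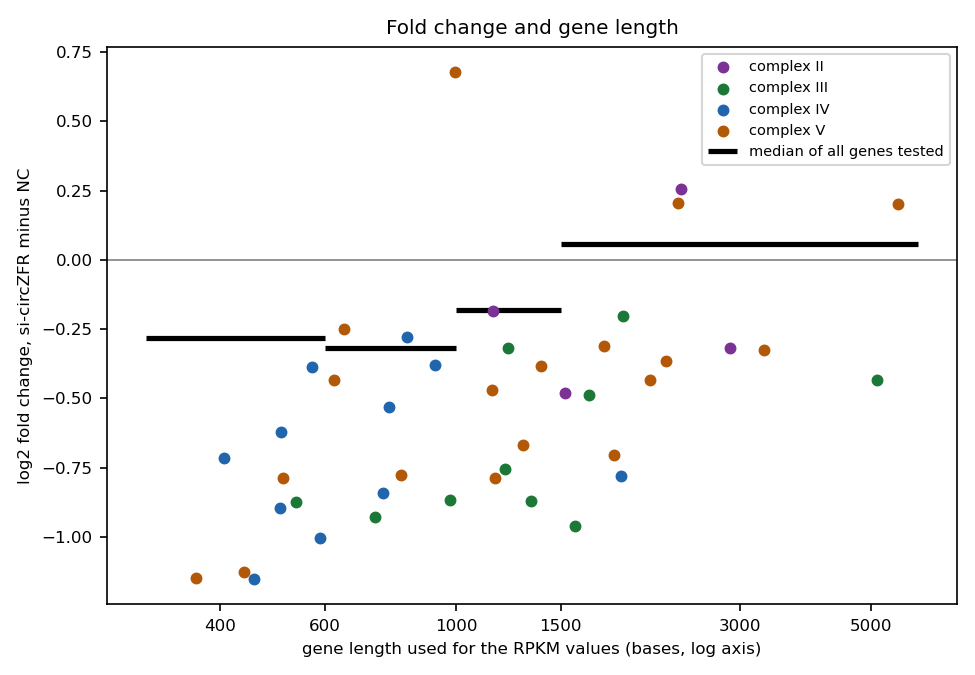
Log2 fold change of each tested member against its gene length (log axis), coloured by complex; black bars give the median of all genes tested in 4 length bins. Most members lie below the bar of their bin, and *ATP5D* lies far above it.

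The other genes of the pathway were set beside the members. The 6 mitochondrial DNA subunits of complexes III to V were all lower after silencing, without overlap (28.1% of all genes). Their median was -1.09, and none had an unadjusted p under 0.05 (11.5% of all genes were lower at that p). *ATP8* had 7064 and 10040 scaled RPKM in NC and 5051 and 3126 in si-circZFR (-1.08, SE 0.55, limma FDR 0.306). *COX3* had 10250 and 17760 in NC and 8116 and 4062 in si-circZFR (-1.23, SE 0.68, limma FDR 0.336). Here NC 2 was above NC 1, as in the nuclear members, but si-circZFR 2 was also below si-circZFR 1, with a median difference of -1.01, against 0.04 in the nuclear members.

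Of 7 further genes of complexes III to V with other names, not all of them subunits, 6 were tested. All 6 were on the lower side, from -1.06 to -0.04 with a median of -0.45. At an unadjusted p under 0.05, 2 were lower (11.5% of all genes). *NDUFA4*, now counted to complex IV, had 17.2 and 29.7 scaled RPKM in NC and 10.6 and 9.96 in si-circZFR (-1.06, SE 0.27, limma FDR 0.122). *C15orf48*, its paralog, had 64.1 and 120.0 in NC and 53.3 and 39.0 in si-circZFR (-0.93, SE 0.33, limma FDR 0.193). *CYCS*, which is cytochrome c and not a subunit, was at -0.29, and *ATPIF1* was at -0.04 with overlap.

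Assembly factors stood nearer to 0 than the subunits they serve, a difference that was not tested. The median was -0.01 for the 4 factors of complex II, 0.22 for the 6 of complex III, -0.11 for the 25 of complex IV and -0.05 for the 5 of complex V. Their median gene lengths, in this order, were 1304, 2243, 1754 and 1829 bases, against 1958, 1280, 590 and 1230 in the members. With the length and GC correction the factors' medians were 0.06, 0.18, -0.04 and 0.03, against -0.12, -0.54, -0.32 and -0.34 in the members. For complex II, *SDHAF2* (-0.71, limma FDR 0.233) and *ACN9* (-0.07, limma FDR 0.841) had the smallest p. For complex III these were *UQCC* (0.65, limma FDR 0.164) and *C11orf83* (0.74, limma FDR 0.281). For complex IV, *COX10*, which makes heme for the enzyme, was lower (8.07 and 7.25 in NC, 4.68 and 2.99 in si-circZFR; -0.86, SE 0.22, limma FDR 0.122), and *COX15*, the next enzyme of that path, was higher (0.47, SE 0.16, limma FDR 0.183). For complex V, *C7orf55* had 1.83 and 3.07 in NC and 7.35 and 10.9 in si-circZFR (1.55, SE 0.26, limma FDR 0.082), and *ATPAF1* was at -0.27 (limma FDR 0.534). No assembly factor passed FDR < 0.05 in limma. At an unadjusted p under 0.05, 5 factors of complex IV were lower and 2 higher, and 1 factor each of complexes III and V was higher (over all genes, 11.5% were lower and 10.1% higher).

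The 12 regulators tested had a median of -0.001, with 2 of them (16.7%) lower at an unadjusted p under 0.05, against 11.5% of all genes. Of the 12, 6 were on the lower side. After the length and GC correction 11 were, with a median of -0.15, against -0.02 over all genes. *TFB2M*, a transcription factor of mitochondrial DNA, had 14.3 and 14 scaled RPKM in NC and 9.14 and 9.24 in si-circZFR (-0.57, SE 0.15, limma FDR 0.125). *TFAM*, which packs and transcribes mitochondrial DNA, had 8.19 and 10.5 in NC and 5.72 and 6.41 in si-circZFR (-0.54, SE 0.18, limma FDR 0.176). *NRF1*, *GABPA* and *YY1*, for which letters of elements were searched in the promoters, were at -0.15, -0.02 and 0.08. The comparison lists lay closer to 0 than complexes III and IV. The median was -0.27 over 37 nuclear subunits of complex I and -0.27 over 76 mitochondrial ribosomal proteins, with 31 and 71 genes on the lower side (49.3% of all genes). At an unadjusted p under 0.05, 7 and 16 were lower (11.5% of all genes) and 1 and 0 higher (10.1% of all genes). Both si-circZFR libraries lay below both NC libraries in 12 and 41 of them (28.1% of all genes). After the length and GC correction the medians of these 2 lists were -0.07 and -0.09. NC 2 was above NC 1 in 34 of the 37 and in 70 of the 76.

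Pseudogenes of members were listed by name (a member's symbol followed by P, with or without a number), and 22 of the 105 listed were tested. Their median was -0.54, with 18 lower and 4 higher (*SDHAP1*, *SDHAP2*, *SDHAP3* and *UQCRFS1P1*, 0.19 to 0.67). At an unadjusted p under 0.05, 11 were lower (11.5% of all genes) and 0 higher (10.1% of all genes). NC 2 lay above NC 1 in 10 of the 22, with a median difference of -0.07, against 0.49 in the members. In the pseudogenes this difference ran from -1.57 to 1.22 on the log2 scale. *ATP5EP2* had 72 and 66 reads in NC and 23 and 21 in si-circZFR (-1.50, SE 0.16, limma FDR 0.0638), beside 340 and 417 reads in NC and 165 and 180 in si-circZFR for *ATP5E*. *UQCRBP1* had 53 and 47 reads in NC and 15 and 20 in si-circZFR (-1.17, SE 0.18, limma FDR 0.0782), beside 743 and 1520 in NC and 683 and 905 in si-circZFR for *UQCRB*. Whether reads of a member were counted at its pseudogenes, or the reverse, was not tested.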

How the data were processed

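RNA-seq of 2 NC and 2 si-circZFR libraries was analysed, with groups and replicate numbers from the sample labels. The deposited values, made by the authors from Ion Proton reads, are RPKM per gene. According to the methods, reads went through alignment to hg38, batch removal by SVA and a test by edgeR, whereas the submitters' processing notes name GRCh37. The aligner version, annotation and handling of reads with several matches are not given in the sources used here.

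A search for the shortest gene length that turns RPKM into whole reads (tolerance 0.002) succeeded for 24282 of 24289 genes above 0. Gene lengths and read numbers are those recovered in this way. With 11040050 to 12816868 reads per library, 98.3% to 98.6% of them on listed genes, counting error was small for most members. Libraries were scaled by trimmed mean (TMM without weights, trimming 30% by log ratio and 5% by level; factors 0.904 to 1.11). The 13885 genes that reached an RPKM of 1 in 2 or more libraries entered limma with a trended prior, on log2 of scaled RPKM plus a pseudocount of 1. P-values were adjusted by Benjamini-Hochberg over all of them (FDR, threshold 0.05). Fold changes on this scale understate changes of low genes. A count test was not the main test because the values are RPKM.

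Members, gene lists and tests were chosen with earlier results of these data known. Every member is accounted for. The result for 1 cell line marker is not reported here. Values per library are given for all of complex II, for the 4 members with the smallest p, up to 3 with the highest fold change and the highest member of each other complex, and for the redox, catalytic and c-ring members, and the 2 genes with the smallest p of each other list are named. *UQCRC2*, *ATP5C1* and *ATP5J2*, further genes named beside them and values of other members were added after their values were seen. Alternatives covered scaling, filter, pseudocount, replicate block, a smooth correction (5 spline degrees of freedom) for length and GC content, limma without a trend, limma-voom on the recovered reads and leaving out each library. GC content was known for 93% of tested genes. Positions came from GENCODE on GRCh38 (all 50 members matched) and promoters from RefSeq. R 4.3.3, limma 3.58.1, Python 3.11.15, numpy 2.4.6, pandas 2.3.3 and matplotlib 3.10.9 were used.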

Additional observations from a re-analysis of the deposited data

How the results depend on the processing

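The direction of each complex median held under all 15 alternatives. The number of genes at FDR < 0.05 was 8, and became 0 without a filter, 209 with RPKM of at least 5, 2 with a pseudocount of 0.1, 15 with the length and GC correction, 1 without a trend and 359 with limma-voom. Members at FDR < 0.05 numbered 0, and became 2 with RPKM of at least 5 (*ATP5E* and *ATP5I*) and 1 with limma-voom (*ATP5E*). The median of complex IV, -0.71, became -0.32 with the length and GC correction and -0.32 with the block and that correction. Without scaling, the median over all genes was 0.15 in place of 0.01, and the members' median was -0.32, 39 of 43 being on the lower side. The causes of these changes were not tested.

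Leaving out each library in turn gave 0 to 803 genes and 0 to 12 members at FDR < 0.05, 7 to 37 members lower at an unadjusted p under 0.05, and medians of -0.42 to -0.09 in complex II, -1.005 to -0.48 in complex III, -1.07 to -0.36 in complex IV and -0.74 to -0.14 in complex V. The highest number of genes and members, and the lowest medians, came without NC 1. A lone library was assumed to vary like the other group.

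Among the 43 tested members, the length and GC correction turned the sign of *ATP5G1* (0.11), *ATP5J2-PTCD1* (-0.0333), *COX4I1* (0.0689) and *SDHB* (0.077), with and without the block. Without NC 2 the signs of 6 members turned, and leaving out a library gave -0.69 to 0.19 for *ATP5G1*, -0.79 to 0.14 for *ATP5G3*, -0.74 to 0.18 for *COX4I1*, -1.001 to 0.23 for *COX6A1*, -0.931 to 0.063 for *UQCRB* and -0.452 to 0.046 for *UQCRC1*. No other alternative turned a sign among them.

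With the replicate number as a block, 63 genes passed FDR < 0.05, while the members stayed at 0 and 19 were lower at an unadjusted p under 0.05. Nothing in the labels ties libraries of the same number, and their deviations from the group means correlated by 0.0694 across genes. A correlation over all genes from 2 libraries a group cannot show whether libraries of the same number shared a batch. The design with 2 libraries a group limits precision: an exact permutation test of a single member could not go below p = 0.333.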
